A study of Mus musculus with 25 samples.

Results

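The 12 wild-type arrays of the series describe the normal mammillary neuroepithelium of the mouse at E10.5, in mid-gestation. They were chosen by genotype label alone, 12 of 25 arrays in all, and the other 13 came from Lhx5 mutant embryos (labelled KO). Every embryo was C57BL/6, and the dissected tissue gave total RNA for Affymetrix arrays of the Mouse Gene 1.1 ST type. Replicates are biological per the titles, which do not say whether an array held 1 embryo or several, so p-values measure only the spread between these samples. The mutants are labelled Lhx5 KO and were, per the study, homozygous for a floxed Lhx5 allele that acts as a hypomorph. They were not compared with wild type, and their replicates 1 to 10 served only as other arrays on which the spread of the same genes could be read.

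The mammillary body is a pair of nuclei at the caudal end of the hypothalamus and belongs to the circuit for memory. It grows from neuroepithelium whose ventral and regional identity depends on Sonic hedgehog (Shh) secreted by the axial midline and the neural tube floor, and on homeodomain factors such as Nkx2-1. The forkhead gene Foxb1, the bHLH-PAS gene Sim1 and the LIM homeobox gene Lhx5 are expressed in the mammillary region and take part in making or maintaining its neurons. At this age most cells of the neural tube wall still divide and the earliest neurons leave the ventricular layer.

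A level is a log2 RMA value, so 1 unit is a doubling, and it also holds a signal particular to each probe set. Single genes were therefore placed in classes and not ranked by level. Genes of chemosensory receptors (1157 of them), which neuroepithelium should not transcribe, gave the unspecific signal. A gene was called above background when its mean exceeded the 95th percentile of these receptors, 3.35, and high when it lay in the highest 10% of named genes, above 8.76. Of 18820 named genes 13461 (71.5%) were above background, 5359 (28.5%) near background and 1882 (10%) high. Array medians ran from 5.36 to 5.56, pairs of arrays correlated across genes with r from 0.987 to 0.997, and replicate 11 had the lowest median and the highest receptor mean (2.86, against 2.73 to 2.81 on the other arrays). Xist was at 9.59 to 9.81 on 8 arrays and at 1.54 to 2.10 on replicates 4, 8, 11 and 12, where Eif2s3y, Kdm5d and Uty of the Y chromosome stood between 7.46 and 8.58. In the 8 arrays with high Xist the same Y-linked probe sets still gave 3.28 to 4.10, so a level up to about 4 can be signal without transcript. Single receptor genes had means up to 5.24, so a level past 4.10 can be unspecific signal too. Where embryo sex is named as a covariate below, it is the split of the arrays by Xist.

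All 5 genes taken as markers were above background on every array. Foxb1 ran from 6.36 through a median of 6.74 to 7.22, with an SD of 0.24 (n = 12). Sim1 ran from 7.42 through 8.26 to 8.75 (SD 0.36). Lhx5 ran from 7.67 through 7.89 to 8.38 (SD 0.22). Foxb1 and Lhx5 thus spanned less than 1 unit, and Sim1 more, with its lowest value on replicate 11. Shh ran from 8.79 through 9.34 to 9.74 (SD 0.30) and Nkx2-1 from 6.90 through 7.89 to 8.33 (SD 0.39). Shh alone of the 5 was in the high class. Per the paper, Shh must be turned down in the mamillary region before it differentiates, so a high Shh level does not mark mammillary identity. Replicate 11 had the highest Foxb1, Lhx5, Shh and Nkx2-1 and the lowest Sim1, and replicate 10 had the lowest Nkx2-1 and Lhx5. The SDs exceeded the median SD of all named genes (0.139) in each case.

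**Figure D1:**
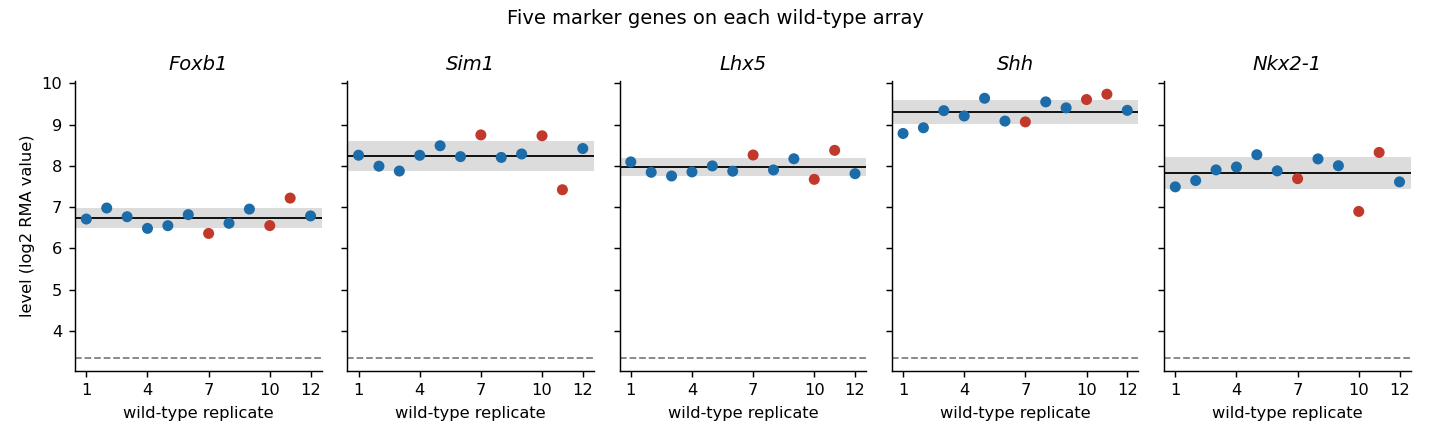
Level of 5 marker genes (log2 RMA value, y axis) by wild-type replicate (x axis, 1 to 12). Black lines are means, grey bands ±1 SD, the dashed line the background threshold of 3.35, and replicates 7, 10 and 11 are red; every point lies well above the dashed line, and Sim1 is lowest on replicate 11 and Nkx2-1 lowest on replicate 10.

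The wider set of mammillary transcription factors was above background too. All 14 that were measured passed, with a median level of 7.29 against 5.50 for all named genes, of which 71.5% passed. Arnt2, the dimerisation partner of the Sim factors, was high (9.02 ± 0.10, SD, n = 12). Sim2 (7.75 ± 0.18), Fezf2 (8.04 ± 0.37), a zinc-finger factor of the forebrain, and the homeobox genes Emx2 (7.31 ± 0.25) and Barhl1 (7.17 ± 0.23) were above background, with SDs larger than the median of all named genes. Otp (6.52 ± 0.80) and Lhx1 (6.35 ± 0.82), homeobox genes of neurons leaving the neuroepithelium, varied most in this list. Otp ran from 5.0 on replicate 10 to 7.61 on replicate 4, and Lhx1 from 5.16 on replicate 11 to 7.94 on replicate 7.

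Most listed factors of neighbouring territories were above background as well, as were 71.5% of all named genes. Of 14 tuberal and anterior hypothalamic factors 12 were above background, and Otx2 (9.63 ± 0.23) and Fezf1 (8.77 ± 0.59) were high. Hmx3 (3.13 ± 0.20) and Nr5a1 (3.33 ± 0.11), the latter a factor of the ventromedial nucleus, were near background. All 11 genes of the Dlx and GABAergic programme were above background and none high, from Lhx8 (3.63 ± 0.18) to Dlx2 (8.01 ± 0.68). Lhx8 lay inside the range of Y-linked probe sets without transcript. In the thalamic and pretectal list 14 of 14 were above background, and Dbx1 (10.29 ± 0.22) and Tcf7l2 (9.94 ± 0.41) were high. All 10 genes of the midbrain floor were above background, among them Foxa1 (8.31 ± 0.36) and Nr4a2 (7.99 ± 0.30), while Pitx3, a marker of dopaminergic neurons, stood at 3.63 ± 0.17, inside the range of Y-linked probe sets without transcript.

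Telencephalic and Hox genes were low or near background, with an exception. Lhx2, which the diencephalon also expresses, was high (9.42 ± 0.37), but Emx1 (4.64 ± 0.38), Eomes (4.30 ± 0.90) and Tbr1 (3.94 ± 0.74) were low and variable, and Neurod6 (2.29 ± 0.10), of differentiated cortical neurons, was near background. Hox genes pattern the hindbrain and spinal cord. Of 36 measured, 28 were near background, and the 8 above it had means from 3.36 (Hoxa6) to 4.54 (Hoxa4), with Hoxa4 alone above the 4.10 reached by Y-linked probe sets without transcript. Hoxa4 was still below the highest mean of a receptor gene, 5.24. No Hox gene had an SD above 0.35.

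**Figure D2:**
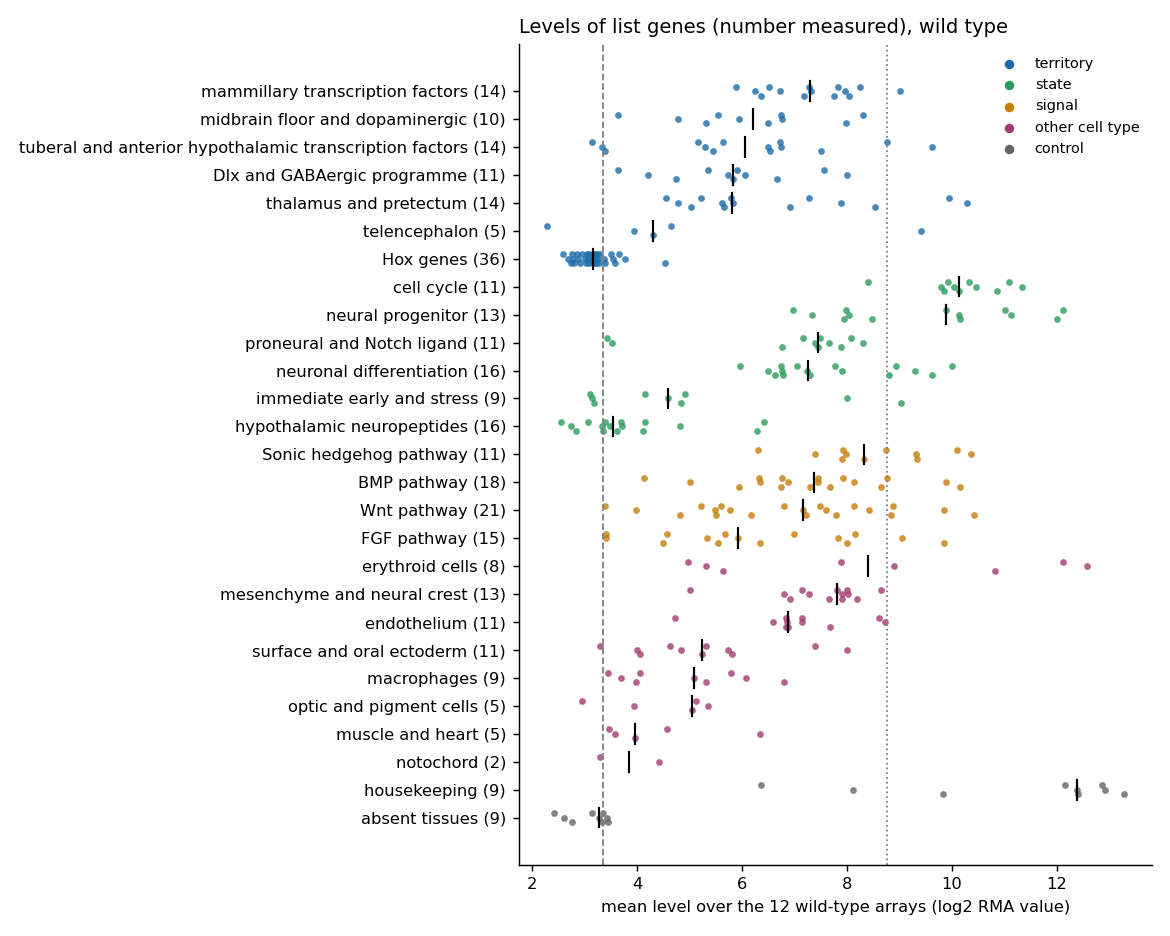
Mean level over the 12 wild-type arrays (x axis, log2 RMA value) of each measured gene of 27 lists (y axis, number measured in parentheses), coloured by kind of list, with black ticks for list medians. Dashed and dotted lines are the background threshold of 3.35 and the threshold of the high class of 8.76; the mammillary list lies wholly between 5.89 and 9.02, cell cycle and progenitor genes reach the high class, and most Hox genes, neuropeptides and genes of absent tissues lie at the background line.

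Signalling genes were read by role. Their counts above background stand beside 71.5% of all named genes. All 11 measured genes of the Sonic hedgehog pathway were above background and 4 were high, namely the ligand Shh, its receptor Ptch1 (10.11 ± 0.10), the transducer Smo (10.37 ± 0.08) and the effector Gli3 (9.34 ± 0.29). Gli1 (7.39 ± 0.17) and Ptch1 are transcribed in response to the pathway, and Hhip (6.30 ± 0.29), a ligand-binding antagonist also induced by it, was above background as well. The co-receptor Boc was the most variable of them, with an SD of 0.51. In the Wnt list 21 of 21 were above background. Its 4 high members were the secreted antagonists Sfrp1 (10.42 ± 0.21) and Sfrp2 (9.86 ± 0.34), the co-receptor Lrp6 (8.84 ± 0.09) and the nuclear factor Tcf7l1 (8.89 ± 0.13). Among ligands Wnt5a (8.14 ± 0.43) and Wnt8b (7.79 ± 0.28) were above background. Wnt3a was at 3.97 ± 0.42, inside the range of Y-linked probe sets without transcript. Wnt7b had the largest SD of the list (0.87), with 4.9 on its lowest array, replicate 10.

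In the list of bone morphogenetic proteins 18 of 18 were above background, and the receptor Bmpr2 (9.88 ± 0.17), the transducer Smad5 (8.77 ± 0.09) and the target Id2 (10.16 ± 0.18) were high. The ligands Bmp7 (8.13 ± 0.33) and Bmp4 (7.68 ± 0.22) were above background, and Bmp2 was at 4.13 ± 0.27. In the fibroblast growth factor (FGF) list 15 of 15 were above background, with the receptors Fgfr1 (9.85 ± 0.08) and Fgfr2 (9.06 ± 0.10) high. The receptors were steady, but the ligands Fgf10 (6.35 ± 0.69) and Fgf15 (7.82 ± 0.62) had the largest SDs of this list. Fgf8 stood at 4.49 ± 0.27, and Fgf3 and Fgf17, both at 3.4, lay just past the threshold.

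The cell states of a dividing wall with early neurons were read in the classes. Their counts stand beside 71.5% of all named genes above background and 10% in the high class. Of 11 cell cycle genes 10 were high, and none had an SD above 0.22, so Mki67 (10.32 ± 0.14), Top2a (9.85 ± 0.07) and Pcna (11.34 ± 0.09) changed little between arrays. Of 13 progenitor genes 7 were high, among them Vim (12.11 ± 0.08), Fabp7 (12.01 ± 0.24), Nes (11.02 ± 0.18) and Sox2 (10.15 ± 0.14), and Pax6 (8.03 ± 0.91) and Sox1 (7.97 ± 0.52) had the largest SDs of the list. All 11 proneural genes and Notch ligands were above background and none high, from Atoh1 (3.41 ± 0.49), a factor of dorsal hindbrain progenitors, to Dll1 (8.31 ± 0.26). Atoh1 passed through its high value on replicate 6 (4.88), and its median of 3.31 lay below the threshold. For 6 list genes, leaving out 1 array put the mean at or below the threshold. They were Atoh1 (3.28 without replicate 6), Fgf17 (3.32 without replicate 10), Wif1 (3.35 without replicate 10), Hmx2 (3.33 without replicate 4), Hoxa6 (3.35 without replicate 3 or 9) and Oxt (down to 3.33, without replicate 5, 7, 11 or 12). All 16 neuronal genes were above background and 5 were high, namely Stmn2 (median 10.05, SD 0.48), Ina (9.62 ± 0.60), Nefl (9.31 ± 0.43), Map2 (8.94 ± 0.40) and Dcx (8.80 ± 0.59). Their median SD was 0.436, against 0.0920 for the cell cycle list. Of 16 hypothalamic neuropeptides 11 were above background, a share near that of all named genes (71.5%). Only Sst (6.42 ± 0.94), Penk (6.28 ± 1.24), Gnrh1 (4.82 ± 0.18), Gal (4.14 ± 0.38) and Cartpt exceeded the 4.10 reached by Y-linked probe sets without transcript. Gnrh1 and Gal lay below the highest mean of a receptor gene, 5.24. Hcrt, Crh, Vip, Nts and Pdyn were near background.

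Genes of other cell types were above background too, as were 71.5% of all named genes. In bulk tissue a lower level can mean fewer cells of a type or less RNA per cell, and these cannot be told apart. All 8 erythroid genes were above background, and the embryonic globins Hba-x (12.58 ± 0.19), Hbb-y (12.13 ± 0.24) and Hbb-bh1 (10.83 ± 0.38) and the red cell anion exchanger Slc4a1 (8.91 ± 0.63) were high. Endothelium (11 of 11), mesenchyme and neural crest (13 of 13) and macrophages (9 of 9) were above background with no high gene, among them Cdh5 (8.73 ± 0.25), Pdgfra (8.65 ± 0.36) and C1qb (6.80 ± 0.54). Of 11 genes of surface and oral ectoderm 10 were above background, among them Krt8 (8.0 ± 0.33) and Krt18 (7.39 ± 0.50), and of 5 genes of optic and pigment cells 4 were above background, with Tyr, the enzyme that starts melanin synthesis, near it (2.95 ± 0.20). Genes of tissues absent from this embryo region gave 2 of 9 above the threshold, Prm1 and Aqp4, both at 3.4. Of 9 immediate early and stress genes 6 were above background, among them Jun, which was high (9.03 ± 0.13). Fos (3.17 ± 0.08), Fosb and Egr2 were near background.

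Spread between wild-type arrays was unevenly shared out. Of 18820 named genes 275 (1.46%) had an SD above 0.5 and 24 an SD above 1. The 25 genes above background with the largest SD, with Xist and 3 known Y-linked genes set apart, had SDs from 0.949 to 1.55, and 7 of them belonged to the gene lists. Aldh1a1, an enzyme of retinoic acid synthesis, led with values from 3.25 to 7.81 and a median of 4.04. Its high values were those of replicates 2 and 8 (7.62 and 7.81), with the other 10 arrays at 5.11 or less. The engrailed gene En2 was next among genes not on the Y chromosome, from 3.17 through 4.56 to 8.16, and Penk, which encodes an opioid precursor, ran from 4.74 through 5.92 to 8.51. Replicate 10 held the highest En2, Pax5 (7.76), Cnpy1 (7.63) and Shisa3 (8.0), and the lowest Nr2e1 (5.87, with 8.78 to 9.97 on the other 11), Olig3 and Dlx1.

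**Figure D3:**
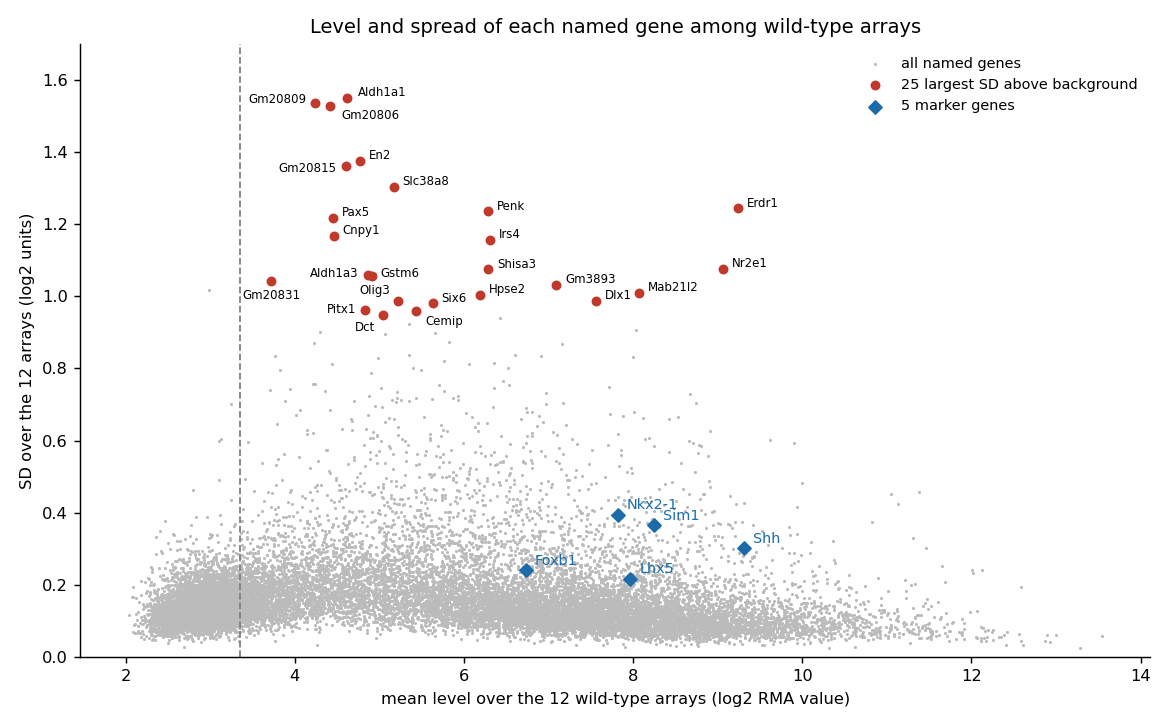
SD over the 12 wild-type arrays (y axis, log2 units) against mean level (x axis, log2 RMA value) of each named gene except Xist and 3 Y-linked genes. The 25 genes above background with the largest SD are red, the 5 marker genes blue diamonds, and the dashed line is the background threshold of 3.35; the marker genes have SDs between 0.22 and 0.39, and the red genes start at 0.949.

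Some of the variable genes followed Xist and the Y-linked genes. Gm20809, Gm20806, Gm20815 and Gm20831 of the Y chromosome were high on replicates 4, 8, 11 and 12 and low on the other 8, as with Gm20809 at 6.05 to 6.70 against 3.16 to 3.32. These genes belong to multicopy families, so which copy gave the signal is uncertain. Gm3893 on chromosome 4 fell into separate groups that did not follow Xist, 5.54 to 5.78 on replicates 5, 9, 10 and 12 and 7.59 to 7.97 on the other 8. Erdr1 was at 6.05 on replicate 12 and between 8.01 and 10.43 elsewhere.

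The same genes varied on other arrays. On the 10 mutant arrays of replicates 1 to 10, which had no part in the choice, the 100 most variable wild-type genes had a median SD of 0.776, against 0.761 on the wild-type arrays and 0.147 for all named genes of the same mutant arrays, and 98 of the 100 were among the 10% of genes with the largest SD there. Of the 25 leading genes Six6 differed most, with an SD of 0.98 in wild type and 0.43 in the mutant.

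The 100 genes were grouped by their correlation across the wild-type arrays, which placed 88 in 9 modules of at least 5 genes. The modules were formed on these arrays, so their mean correlations (0.64 to 0.87, against 0.0252 for all pairs of genes above background) describe the grouping and test nothing. On mutant replicates 1 to 10 the mean correlation within modules ran from 0.27 to 0.85, against 0.0137 for all pairs.

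The largest module held 18 genes and was lowest on replicate 11 (-1.18 from the 12-array mean) and highest on replicate 7 (1.2). It held neuronal genes, such as Lhx1, the glutamate transporter gene Slc17a6, Dscam and Bcl11a. With them were Ogn and Fmod, proteoglycan genes of connective tissue, and C3ar1, a complement receptor gene of macrophages. Penk, Cemip and Tbx15 were members too. A module of 13 genes held Nr2e1, Pax6, Olig2, Olig3, Dlx1, Dlx2, Dlx5, Gsx2, Otp and Wnt7b, patterning genes of the ventricular zone and its early neurons, and stood at -2.01 from its mean on replicate 10 and within -0.58 to 0.77 elsewhere. A module of 9 with En1, En2, Pax5, Pax8 and Cnpy1, all known at the border of midbrain and hindbrain, and Tal2 was 2.24 above its mean on the same array and at most 0.60 above it on any other. Without replicate 10 the mean correlation went from 0.77 to 0.60 in the module with Dlx1 and from 0.72 to 0.49 in the module with En2.

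The other modules peaked on other arrays. The 15 genes with Eomes, Tbr1, Pax3, Pax7, Lhx9, Wnt3 and Rspo3 were highest on replicate 1 (1.21). Eomes and Tbr1 belonged to the telencephalic list, and Pax3, Pax7 and Lhx9 to the thalamic and pretectal list. The paper takes Tbr1 as a thalamic eminence marker. The 9 genes with Aldh1a1, Aldh1a3 and the pigment cell genes Dct, Pmel and Gpnmb were highest on replicates 2 (1.37), 8 (1.26) and 3 (1.09), and the mean correlation was the same on mutant arrays (0.72 on both). A module of 6 with Alas2, the enzyme that starts heme synthesis in red cells, and Kel, a blood group gene, was highest on replicate 11 (1.11). It stood at 0.97 on replicate 7 and 0.78 on replicate 9. One of 6 with Six6, Pitx1, Lhx3 and Gpr50, known from the pituitary primordium and the hypothalamus above it, was highest on replicate 8 (1.06) and lowest on replicate 10 (-0.95). Another of 6 joined Sst to Isl1, Isl2, Ctse, Ppp1r1c and Erbb3, was highest on replicate 4 (1.06), and had the lowest correlation on mutant arrays (0.27, against 0.81 in wild type). The last, also of 6, held 5 Y-linked genes and the autosomal Gstm6. Gstm6 stood at 5.55 to 6.01 on replicates 4, 8, 11 and 12. It was also at 5.88, 5.77 and 5.20 on replicates 6, 7 and 10, where Xist was high, so it did not follow Xist.

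**Figure D4:**
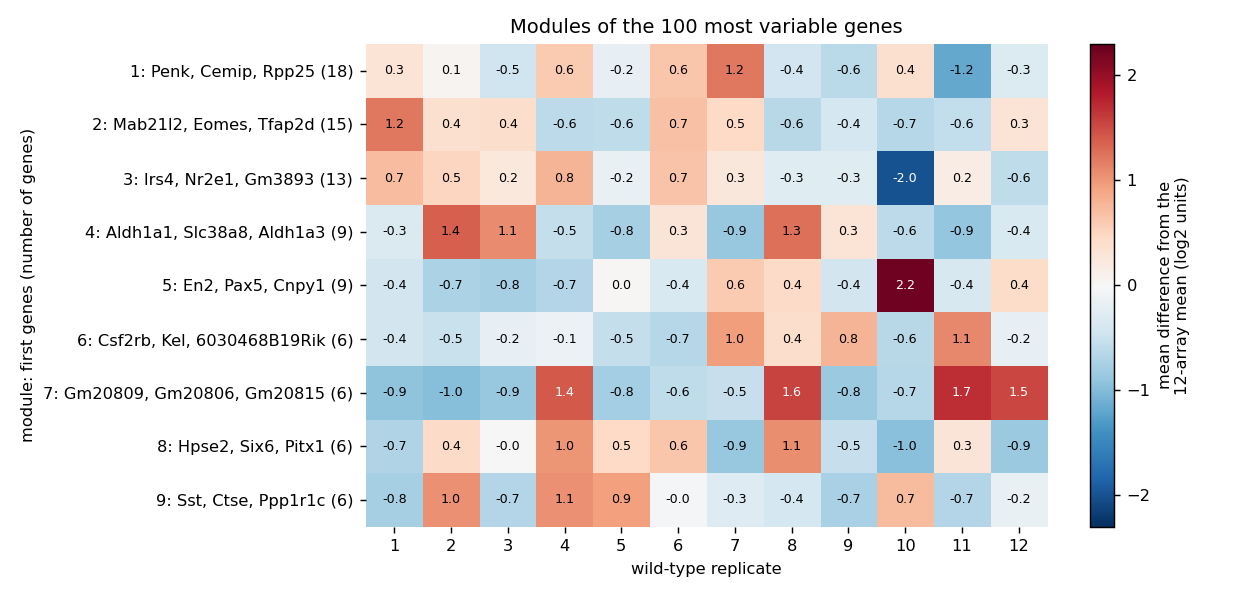
Mean difference of each module of variable genes from its 12-array mean (colour and printed value, log2 units), with modules as rows labelled by their first 3 genes and number of genes, and wild-type replicates as columns. Replicate 10 combines the lowest value of the third module (-2.0) with the highest of the fifth (2.2), and the first module runs from -1.2 on replicate 11 to 1.2 on replicate 7.

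The first principal component of the 13454 genes above background had replicates 11 and 7 at its ends, as the largest module did, and held 30.4% of the variance. Penk, Cemip, Slc17a6 and Lhx1 had the largest weights at the end of replicate 7. The second (14.8%) set replicate 10 apart, with En2, Cnpy1 and Pax5 at one end and Nr2e1, Pax6 and Wnt7b at the other.

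Of the 8 genes whose level was taken as a term, a neuronal one had by far the most associated genes. Dcx, a microtubule protein gene of young neurons, ran from 7.57 on replicate 11 through a median of 8.79 to 9.80 on replicate 7. With the level of Dcx as the term of a limma fit across all genes, 1648 of 18819 other genes (8.76%) passed at an adjusted p below 0.05, 1201 (6.38%) rising with Dcx and 447 (2.38%) falling. Of the 15 other measured neuronal genes 14 rose with it, the exception being Rbfox3, and of 11 proneural genes and Notch ligands 9 rose. Stmn2 rose by 0.81 ± 0.05 (SE) per unit of Dcx (adjusted p = 3.08e-06) and was highest and lowest on the same arrays. The glutamate receptor gene Gria2 (0.98 ± 0.06) and the adhesion gene Ncam1 (0.66 ± 0.05) were next to it by correlation, and the proneural target Insm1 rose by 0.67 ± 0.07. Mycn, which drives progenitor growth, fell by 0.35 on the log2 scale per unit of Dcx (SE 0.05, adjusted p = 0.000470), and Larp4 and Ide fell as well. Of 11 cell cycle genes only Ccne1 fell, and Hes1, the Notch effector, fell by 0.39 per unit (adjusted p = 0.00252), while the progenitor genes Nes and Fabp7 rose.

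Genes of other cell types moved with Dcx too. Of 9 macrophage genes 5 rose with it and of 13 mesenchymal genes 4, against 6.38% of all genes, and Krt8 and Krt18 fell. Of 11 endothelial genes 1 rose, a share near that of all genes. On replicate 11 the mean of the macrophage list was 0.70, of the endothelial list 0.71 and of the mesenchymal list 0.58 below the 12-array mean, and that of the erythroid list 0.80 above it. Each of the 4 lists had its extreme there. The macrophage list ran up to 0.35 above the mean, on replicate 4. The endothelial list ran to 0.16, on replicate 9, and the mesenchymal list to 0.29, on replicate 5. The erythroid list was also 0.64 above its mean on replicate 7 and 0.57 on replicate 9, and was lowest on replicate 10 (-0.49). With the receptor mean of each array as a covariate 667 genes passed, without replicate 7 there were 950, and without replicate 11 there were 842. The part of these measures in the association was not tested.

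Of 14 mammillary genes 3 rose with Dcx and 3 fell (6.38% and 2.38% of all genes), and 8 passed in neither direction. Sim1 (0.52 ± 0.10, SE, per unit of Dcx, adjusted p = 0.00494, with r of 0.83 that went to 0.52 without the 2 arrays farthest from the median), Lhx1 (1.26 ± 0.16, adjusted p = 0.000355) and Uncx (0.93 ± 0.12, adjusted p = 0.000422) rose with Dcx. In the opposite direction Foxb1 fell by 0.32 (SE 0.08, adjusted p = 0.0202), Foxb2 by 0.52 (SE 0.14, adjusted p = 0.0367) and Nkx2-4 by 0.32 (SE 0.09, adjusted p = 0.0465). The tuberal genes Rax and Tbx3 fell too, with adjusted p of 0.0465 and 0.0394. Lhx5 (-0.09 ± 0.10) and Nkx2-1 (-0.39 ± 0.15) did not pass, with adjusted p of 0.654 and 0.131.

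Whether the 5 marker genes vary together was asked over their 10 pairs. Only Foxb1 and Sim1 passed, in opposite directions, with Pearson r = -0.80 (two-sided permutation p = 0.00188, adjusted over 10 pairs 0.0188) and Spearman rho = -0.64 (permutation p = 0.0306, adjusted 0.277). Replicate 7 had the lowest Foxb1 and the highest Sim1, replicate 11 the reverse. Without both, the arrays farthest from the Foxb1 median, r was -0.50, without replicate 7 alone it was -0.75 (adjusted permutation p = 0.0788) and without replicate 11 alone -0.65 (adjusted permutation p = 0.319), so the relation rested on those arrays. It was -0.42 on mutant replicates 1 to 10. The other 9 pairs had r from -0.54 (Sim1 and Nkx2-1) to 0.47 (Lhx5 and Nkx2-1) and adjusted permutation p of 0.375 or more. Shh and Nkx2-1 had r = 0.33 (permutation p = 0.298, adjusted 0.594) and rho = 0.57 (permutation p = 0.0555, adjusted 0.277), and r was 0.16 without replicates 1 and 2, farthest from the Shh median. Without replicate 10, with the lowest Nkx2-1 (6.9) beside a Shh level of 9.61, r was 0.88 (adjusted permutation p = 0.0045).

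**Figure D5:**
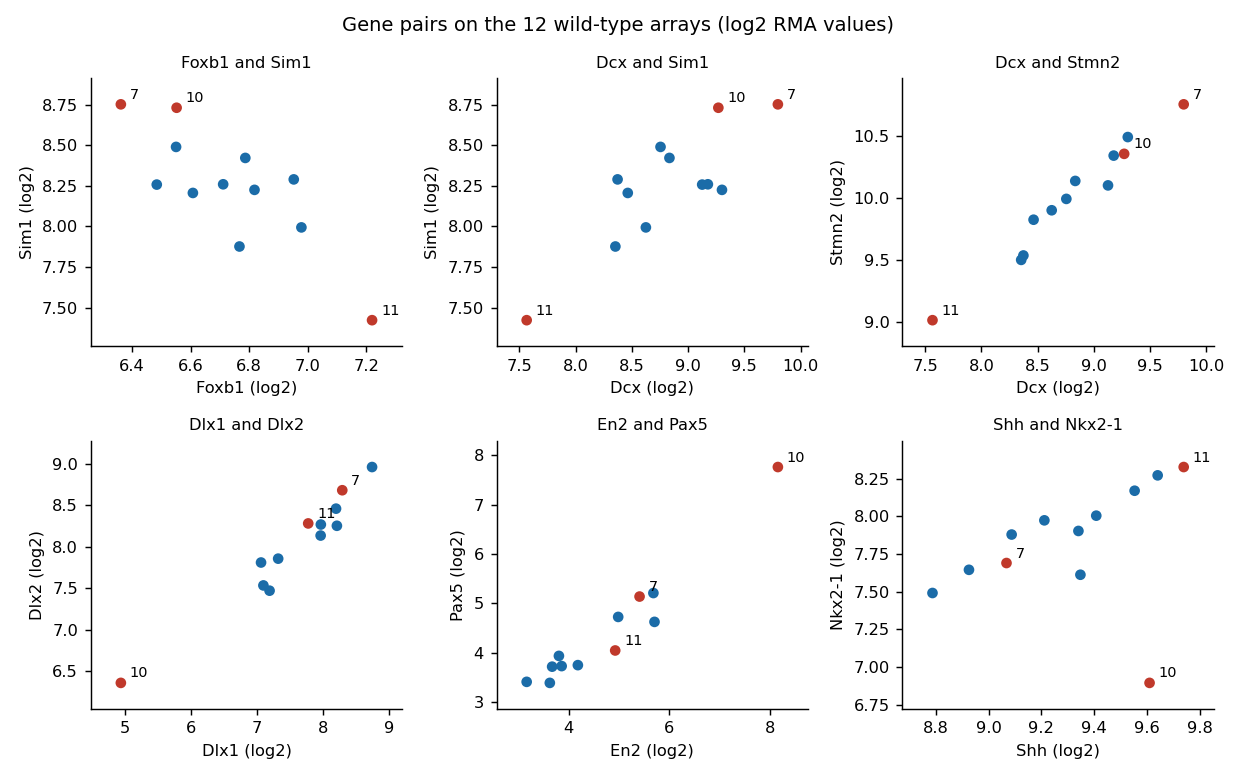
Levels of 6 gene pairs (both axes, log2 RMA values) on the 12 wild-type arrays, with replicates 7, 10 and 11 red and numbered. Foxb1 and Sim1 run in opposite directions with replicates 7 and 11 at the ends, Stmn2 follows Dcx over all arrays, and replicate 10 lies far from the rest for Dlx1 and Dlx2, for En2 and Pax5, and for Shh and Nkx2-1.

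Fits on each marker across all genes gave few calls, with Sim1 as the exception. With Sim1, 108 genes (0.574%) passed, 101 rising and 7 (0.0372%) falling. Of 16 neuronal genes 5 rose, namely Dcx, Stmn2, Nefl, Nefm and Snap25, and Uncx rose by 1.41 ± 0.24 per unit of Sim1 (adjusted p = 0.0230). The cannabinoid receptor gene Cnr1 had the highest correlation with Sim1 (rising by 0.66 ± 0.09 per unit, adjusted p = 0.00694) and the lowest with Foxb1 (slope -1.0 ± 0.13, adjusted p = 0.0447). The number of Sim1 calls was 8 without replicate 11, 18 without replicate 10, 27 without replicate 7 and 175 without replicate 2, and with embryo sex or the receptor mean as a covariate it was 18 or 17. With Foxb1, 2 genes (0.0106%) passed, Cnr1 and Porcn, which encodes the acyltransferase of Wnt ligands, both falling. The number was 54 without replicate 6, 16 without replicate 8, 1 without replicate 9 and 0 without replicate 1, 2, 3, 4, 7, 10 or 11. With Lhx5, only Tspan33 passed (0.00531%), rising by 1.90 ± 0.25 (adjusted p = 0.0419). Leaving out replicate 1 gave 11, replicate 5 gave 2 and each of the others except replicate 12 gave 0. No erythroid gene passed, but the median r with Lhx5 was 0.72 over the 8 erythroid genes. It was 0.29 over the mammillary list, -0.58 over the endothelial list and -0.04 over all named genes. Epor, of the erythroid list, had r = 0.87 with Lhx5. Whether red cell content had a part in these values was not tested.

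With Shh, 20 genes (0.106%) passed, 8 rising (0.0425%) and 12 falling (0.0638%). The growth factor gene Fgf10 led, rising by 2.13 ± 0.24 per unit of Shh (adjusted p = 0.00891). Fgf10 was lowest on replicate 1 (5.29) and highest on replicate 11 (7.75), as Shh was. Eomes (-2.65 ± 0.38, adjusted p = 0.0296) and Tbr1 (-2.10 ± 0.35, adjusted p = 0.0422) fell with Shh, and both were highest on replicate 1, at 6.42 and 5.68. Bdh1, Rgs16 and Unc13b had the lowest correlations with Shh. Among the 3 highest was Vmn1r213, one of the receptor genes taken as background, with a mean of 3.76. Without replicates 1 and 2, farthest from the Shh median, the correlation of Shh with Fgf10 went from 0.93 to 0.92, with Rgs16 from -0.91 to -0.93 and with Bdh1 from -0.92 to -0.89, so these associations were about as large without them. The number of genes that passed was 0 without replicate 1, 45 without replicate 2, 10 without replicate 3, 7 without replicate 4, 9 without replicate 5, 4 without replicate 6, 2 without replicate 7, 8 without replicate 8 and 9 without replicate 12. With embryo sex or the receptor mean as a covariate it was 2 or 3. With Nkx2-1, 0 of 18819 genes passed in limma, 1613 had an unadjusted p below 0.05, and 3 passed without replicate 10. The nearest by correlation were Socs2 and Gsc2 (adjusted p = 0.248 for both), and the sister gene Nkx2-4 had a slope of 0.58 ± 0.11 per unit with the same adjusted p.

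Dlx1 and Foxa1 stood for opposite territories of the ventral neural tube. Dlx1 ran from 4.93 on replicate 10 through a median of 7.87 to 8.74 on replicate 4, and Foxa1 from 7.80 on replicate 2 through 8.40 to 9.11 on replicate 10. With Dlx1, 34 genes (0.181%) passed, 20 rising and 14 falling (0.0744%). Of the 10 other genes of the Dlx list 5 rose, Dlx2 (0.67 ± 0.05, SE, per unit of Dlx1, adjusted p = 2.78e-05), Dlx5, Dlx6, Sp9 and Gsx2, and so did Wnt7b and Th, the enzyme gene of dopamine synthesis. Foxa1 (-0.31 ± 0.06, adjusted p = 0.0394) and the floor plate gene Ferd3l (-0.52 ± 0.07, adjusted p = 0.00672) fell. Without replicate 10 only 3 genes passed. With Foxa1, 31 genes (0.165%) passed, 12 rising (0.0638%) and 19 falling. Ferd3l (1.46 ± 0.17, adjusted p = 0.0105) and Foxa2 (1.11 ± 0.16, adjusted p = 0.0157) rose, and Nr2f1, Pax6, Sox1, Olig3, Gsx1 and Wnt7b fell. The count was 1 without replicate 1, 48 without replicate 2, 16 without replicate 5, 0 without replicate 6, 13 without replicate 8, 20 without replicate 9, 2 without replicate 10, 58 without replicate 11 and 14 without replicate 12. The midbrain floor list was highest on replicate 10 (0.95 above its mean) and the Dlx list lowest there (-0.96).

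Dlx1 and Dlx2 are neighbours on chromosome 2, transcribed towards each other, and were the closest pair with Dlx1 as anchor, so their promoters are shown. The sequences are the 250 bases before each RefSeq start in GRCm38.p6, 5′ to 3′ on the gene's strand, at chr2:71529195-71529444 (plus strand) for Dlx1 and chr2:71546755-71547004 (minus strand) for Dlx2. Capitals mark matches on either strand to CCAAT (33.8% of all 32851 such windows hold it), the E-box CACGTG (6.02%) and the GC box GGGCGG (32.7%).
Dlx1: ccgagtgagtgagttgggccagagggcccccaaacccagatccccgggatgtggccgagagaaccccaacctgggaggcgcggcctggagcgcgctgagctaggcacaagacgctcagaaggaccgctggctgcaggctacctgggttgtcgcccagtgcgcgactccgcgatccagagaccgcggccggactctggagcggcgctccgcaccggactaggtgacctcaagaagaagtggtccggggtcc
Dlx2: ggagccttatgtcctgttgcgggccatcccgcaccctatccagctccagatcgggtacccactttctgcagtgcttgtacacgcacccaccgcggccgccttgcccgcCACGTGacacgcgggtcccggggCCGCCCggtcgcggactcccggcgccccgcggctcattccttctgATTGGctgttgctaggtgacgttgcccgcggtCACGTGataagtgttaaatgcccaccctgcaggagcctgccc
Both windows were rich in G and C (68.0% and 66.4%, against a median of 52.4% of all windows). Dlx2 held 4 matches, 2 of the E-box and 1 each of the others, and Dlx1 none. TAATTA (4.84% of windows), bound by homeodomain factors, TGTTTAC (3.17%), bound by forkhead factors, and TGGGTGGTC (0.225%), bound by GLI factors, were in neither, nor in the same windows of Sim1 and Nkx2-1. No match says only that these letters are not in these windows.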

How the data were processed

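RNA of mammillary neuroepithelium was measured on 12 wild-type arrays (13 KO arrays otherwise). Per the labels, the authors obtained log2 values by robust multi-array averaging (RMA; tools named are Expression Console 1.0, R 2.7.0 and affy). The deposited log2 values were used without further normalization. In the deposited columns 8 wild-type cells above 14, apparently without their decimal point, were set missing. Of 35556 probe sets, the 6616 lowest-numbered ones, which have no gene annotation, were not used, and of the remaining 28940 clusters 21218 carried a single symbol, 1881 several and the rest none. The brightest cluster stood for each of 18820 genes (1386 had several), and 99.8% of single-symbol clusters matched a current Entrez gene.

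Genes and lists were chosen with earlier results of these data known. Lists were described by counts. The report names the 5 markers, list members, the 25 most variable genes, module members and, for each anchor, the 3 genes with the highest and the 3 with the lowest correlation. Dcx replaced Tubb3 as an anchor after the files were seen. Associations were fitted with limma 3.58.1 (R 4.3.3) over all named genes with Benjamini-Hochberg adjustment, tested on simulated data. Modules came from average linkage of 1 minus r (tree height 0.5, 100 genes). Permutation tests drew 100000 two-sided permutations (scipy 1.17.1, python 3.11.15). Arrays hold no counts, so their number limits precision. KO replicates 1 to 10 had the same mean as replicates 11 to 13 (median absolute difference 1.33e-06), so their level was not used and they gave SDs and correlations only. Alternatives were repeated quantile normalization, median centring, cluster means, other thresholds, sex and receptor-mean covariates, limma-trend and leaving out each array. Sex was read from the Xist level of each array.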

Additional observations from a re-analysis of the deposited data

How the results depend on the processing

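Between 13402 and 13505 genes were above background when each array was left out, and 12288 with the 99th or 14284 with the 90th receptor percentile. Associations depended more on the setting. Leaving out each array gave 0 to 54 genes with Foxb1 (2 with all arrays), 8 to 175 with Sim1 (108), 0 to 11 with Lhx5 (1), 0 to 45 with Shh (20), 0 to 3 with Nkx2-1 (0), 3 to 42 with Dlx1 (34), 0 to 58 with Foxa1 (31) and 842 to 1637 with Dcx (1648). With embryo sex as a covariate Foxb1 had 0, Sim1 18, Lhx5 2 and Shh 2. With the receptor mean Foxb1 had 0, Sim1 17, Lhx5 0, Shh 3, Foxa1 48 and Dcx 667. Repeated quantile normalization gave Foxb1 0 and Foxa1 18, median centring Foxb1 0 and Shh 35, and limma-trend Sim1 221 and Shh 34. The cause was not tested. The marker pairs past the threshold were 0 with Spearman's rho and 0 to 2 without each array (1 with all). By median absolute deviation 13 of the 25 most variable genes were the same, and without each array 20 to 25. The first component held 27.3% over all named genes and 27.3% to 33.8% without each array. No marker pair past the threshold changed sign, and the direction of single genes was not compared between settings. The planned fits on Tubb3 were not run, since no single-symbol cluster of it was used here. No paired analysis was possible because only wild-type arrays were compared, and replicate numbers pair nothing within 1 group. Signal near the background threshold limits what can be said of low genes.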
